A study of Mus musculus with 12 samples.

Results

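A set of 10 genes of T cells and cytotoxic lymphocytes were followed through kidney cortex: Cd3d, Cd3e, Cd3g, Cd4, Cd8a, Cd8b1, Lck, Cd2, Nkg7 and Gzma. They are 10 of the 23183 gene symbols with a value in each library, and they were chosen by their measured levels, as genes lower in Acot12-/- than in Acot12+/+ kidneys. Differences between the genotypes in these 10 genes are therefore given as a description without a test. Gzma did not follow the description by which it was chosen: in obstructed kidneys its level was higher in each Acot12-/- library than in every Acot12+/+ library.

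T cells recognize antigen through the T cell receptor, whose signal passes through the CD3 chains encoded by Cd3d, Cd3e and Cd3g. The coreceptors CD4 and CD8 bind MHC molecules and bring the kinase LCK to the receptor, and CD2 is an adhesion molecule of T cells and natural killer (NK) cells. NKG7 and granzyme A belong to the cytotoxic granules of CD8 T cells and NK cells. In an obstructed kidney, T cells enter the interstitium together with macrophages and other leukocytes, while a kidney without injury holds few of them. CD4 and CD8A are not exclusive to T cells, since some myeloid cells carry CD4 and some dendritic cells carry CD8A.

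Male C57BL/6N mice (C57BL/6 in the labels), 6 to 7 weeks old, underwent unilateral ureteral obstruction (UUO), a surgical closure of the ureter on 1 side, and both kidneys were taken on day 7. The 4 groups of 3 libraries were Acot12+/+ CL, Acot12+/+ UUO, Acot12-/- CL and Acot12-/- UUO, where CL is the contralateral, unobstructed kidney of an operated mouse and thus not a kidney of a sham-operated animal. Acot12-/- mice carry a nuclease-induced germline mutation of Acot12, an acyl-CoA thioesterase, in every tissue, so leukocytes carry it as well as the kidney. Levels are FPKM (sequenced fragments divided by transcript length and by library depth).

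Acot12 itself had 52.7 to 78.1 FPKM in Acot12+/+ CL against 6.80 to 9.15 FPKM in Acot12-/- CL libraries, and 9.98 to 21.2 against 1.80 to 3.86 FPKM in UUO libraries, so the libraries followed their labels. The divisor for depth was derived from the steps between low values. It was 12430000 to 13800000 fragments for Acot12+/+ and 14080000 to 16370000 for Acot12-/- CL libraries. UUO libraries had larger divisors, with 21290000 to 22970000 fragments for Acot12+/+ and 18540000 to 21770000 for Acot12-/-. The divisor thus moved with obstruction. Whether it is the sequenced depth or a depth changed by normalization cannot be told from the values. In CL kidneys the Acot12-/- libraries, in which the members were low, had the larger divisors. The member values rested on about 7 to 138 (Acot12+/+) and 0 to 99 (Acot12-/-) fragments each in CL, and on 28 to 329 and 23 to 193 fragments in UUO kidneys, so levels in Acot12-/- CL carried the largest counting error. Of the 120 member values, 5 were listed at 0, all of them in Acot12-/- CL. The T cell receptor constant genes Trac, Trbc1, Trbc2 and Trdc had no value under these symbols. The check of the label therefore rested on the CD3 genes, which were above 0 in every Acot12+/+ and every UUO library.

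The 3 CD3 genes lie next to each other on chromosome 9 (GRCm38). Cd3g (44969572 to 44980431) and Cd3d (44981786 to 44987339) point away from each other with 1355 bases between their start sites, and Cd3e follows at 44998740 to 45009627, so that the whole cluster spans 40056 bases. Cd8b1 (71322788 to 71337494) and Cd8a (71373427 to 71379173) are neighbors on chromosome 6, separated by 35933 bases, and Cd4 is on the same chromosome at 124864692 to 124888221. Lck is on chromosome 4 (129548344 to 129573641), Cd2 on chromosome 3 (101275899 to 101287939), Nkg7 on chromosome 7 (43437073 to 43438249) and Gzma on chromosome 13 (113093825 to 113100981). All are protein-coding genes. Cd3e overlaps the annotated transcripts Gm48719, on the opposite strand, and Gm48720, and Lck contains Mir8119. Reads shared with them could not be told apart from the values.

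The 150 bases before the start site are shown for the CD3 genes and for both start sites of Lck, whose levels moved in the same directions across the groups, and for Gzma, whose level did not. The sequences come from the RefSeq promoter table (GRCm38.p6), which held 8 windows for 7 of the 10 members. Capitals mark words of 6 bases searched on both strands, namely the ETS word AGGAAG, the RUNX word TGTGGT, the GATA word AGATAA, the TCF/LEF word CTTTGA and the E-box word CACCTG.
Cd3g, chr9:44980432-44980581, minus strand: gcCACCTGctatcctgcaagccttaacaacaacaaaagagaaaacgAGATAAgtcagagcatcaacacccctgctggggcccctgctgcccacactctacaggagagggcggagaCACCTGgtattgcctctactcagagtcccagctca
Cd3d, chr9:44981636-44981785, plus strand: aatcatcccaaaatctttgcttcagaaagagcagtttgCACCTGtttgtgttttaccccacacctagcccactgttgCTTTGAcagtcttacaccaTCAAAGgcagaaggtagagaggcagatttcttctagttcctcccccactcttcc
Cd3e, chr9:45009612-45009761, minus strand: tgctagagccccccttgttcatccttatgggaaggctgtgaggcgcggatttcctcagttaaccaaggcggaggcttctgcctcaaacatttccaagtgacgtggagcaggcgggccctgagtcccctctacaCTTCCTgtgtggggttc
Lck, chr4:129573642-129573791, minus strand: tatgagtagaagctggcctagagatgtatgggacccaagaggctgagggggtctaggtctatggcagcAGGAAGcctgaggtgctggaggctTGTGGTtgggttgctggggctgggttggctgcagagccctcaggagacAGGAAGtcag
Lck, chr4:129558373-129558522, minus strand: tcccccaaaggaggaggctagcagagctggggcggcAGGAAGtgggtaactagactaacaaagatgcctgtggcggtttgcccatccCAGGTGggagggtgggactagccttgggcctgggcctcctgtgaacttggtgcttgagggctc
Gzma, chr13:113100982-113101131, minus strand: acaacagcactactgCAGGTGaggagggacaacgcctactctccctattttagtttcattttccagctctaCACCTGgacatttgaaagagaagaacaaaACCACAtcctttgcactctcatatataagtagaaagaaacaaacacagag
In the 250 bases before the start, the ETS word was present in 5 of the 8 member windows and in 29.5% of the 32851 windows of the same length in the whole table. The E-box word was in 4 of the 8 windows against 17.2% of all windows, the RUNX word in 3 against 14.0%, the GATA word in 1 against 9.99% and the TCF/LEF word in 1 against 13.8%, while TATAAA was in 0 of 8 against 12.4%. Gzma held the RUNX and E-box words. The ETS word was held by Cd3d, Cd3e, Lck and Nkg7 and was absent from Gzma, Cd3g and Cd8a, so it did not set Gzma apart. In Cd3d the word lay 198 bases before the start, outside the stretch shown. These are matches of letters, not measured binding.

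In CL kidneys, the CD3 genes, Cd8b1, Lck, Cd2 and Nkg7 were lower in every Acot12-/- library than in every Acot12+/+ library. Cd3g, the gamma chain of CD3, had 4.43, 4.84 and 3.10 FPKM in the 3 Acot12+/+ CL libraries and 0.422, 1.08 and 1.49 FPKM in Acot12-/- CL. Cd3d, the delta chain, had 2.71, 2.96 and 1.80 FPKM in Acot12+/+ CL against 0.425, 0 and 0.168 FPKM in Acot12-/- CL. Cd3e, the epsilon chain that pairs with both others, had 0.991, 1.28 and 1.06 FPKM against 0.333, 0.393 and 0.051 FPKM. None of the 3 genes overlapped between the genotypes, and the knockout values rested on at most 19 fragments. In these bulk samples, fewer T cells and less RNA per T cell cannot be told apart.

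The coreceptor genes did not behave alike in CL kidneys. Cd8b1, the beta chain of the CD8 heterodimer of T cells, had 1.89, 1.16 and 1.08 FPKM in Acot12+/+ CL against 0, 0 and 0.052 FPKM in Acot12-/- CL, where a single fragment stood behind the highest value. Cd8a, the alpha chain, had 1.99, 3.86 and 1.09 FPKM in Acot12+/+ CL against 0.925, 1.67 and 2.11 FPKM in Acot12-/- CL, and the groups overlapped. Cd8a thus kept 40 to 99 fragments per Acot12-/- CL library while Cd8b1 had 0 or 1. The ratio of Cd8b1 to Cd8a FPKM was 0.301 to 0.983 for Acot12+/+ and 0 to 0.0247 for Acot12-/- CL libraries, against 0.832 to 1.34 and 0.576 to 0.910 for the respective UUO libraries. Cd4 was low in CL kidneys of both genotypes, with 0.287, 0.254 and 0.175 FPKM in Acot12+/+ and 0.186, 0.194 and 0 FPKM in Acot12-/-, and the groups overlapped.

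Lck, the kinase that starts receptor signaling, had 2.39, 1.67 and 1.71 FPKM in Acot12+/+ CL against 0.326, 0.373 and 0.768 FPKM in Acot12-/- CL. Cd2 had 0.817, 0.624 and 0.771 FPKM against 0.146, 0.073 and 0 FPKM. Nkg7, a granule membrane protein, had 5.25, 5.21 and 3.21 FPKM against 1.03, 0.221 and 0.427 FPKM. These 3 genes were low in each Acot12-/- library. Gzma, a granule protease, differed from Nkg7: it had 0.922, 2.78 and 2.04 FPKM in Acot12+/+ CL against a narrow 1.24, 1.31 and 1.25 FPKM in Acot12-/- CL, inside the range of Acot12+/+.

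**Figure D1:**
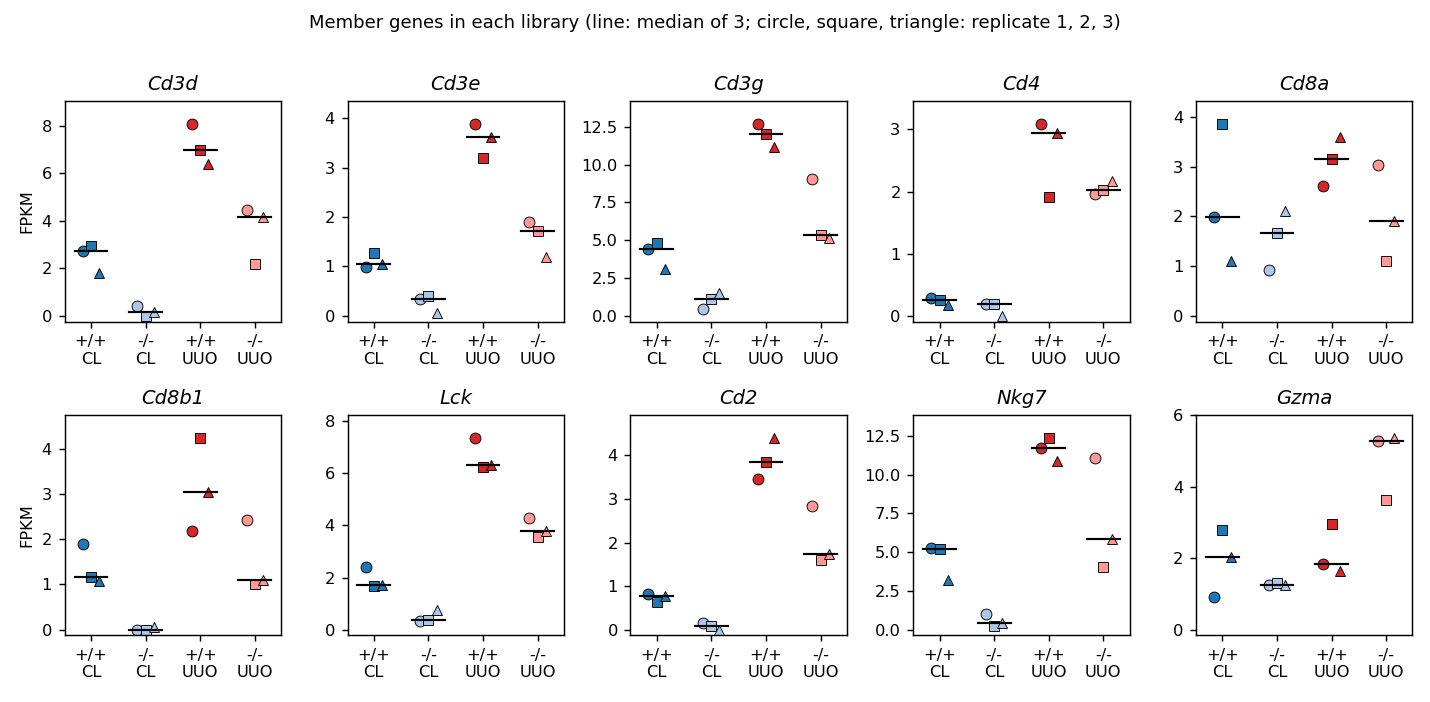
FPKM (vertical axis, linear, a scale per gene) of the 10 member genes in the 12 libraries, by genotype and kidney (horizontal axis). Points are libraries and lines are medians of 3. Most genes are lowest in Acot12-/- CL and highest in Acot12+/+ UUO, Cd8a overlaps throughout, and Gzma is highest in Acot12-/- UUO.

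In UUO kidneys the levels in Acot12-/- were again below those in Acot12+/+ for most members, with a smaller proportional distance. Cd3g had 12.7, 12.1 and 11.1 FPKM in Acot12+/+ UUO and 9.05, 5.36 and 5.18 FPKM in Acot12-/- UUO. Cd3d had 8.09, 7.00 and 6.42 FPKM against 4.45, 2.17 and 4.18 FPKM. Cd3e had 3.89, 3.19 and 3.61 FPKM against 1.90, 1.71 and 1.19 FPKM. The mean of Acot12-/- was 54.6% of the Acot12+/+ mean for Cd3g, 50.2% for Cd3d and 45.0% for Cd3e, and no values overlapped.

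Lck and Cd2 showed the same separation. Lck had 7.37, 6.23 and 6.33 FPKM in Acot12+/+ UUO and 4.27, 3.55 and 3.79 FPKM in Acot12-/- UUO, a mean of 58.3% of Acot12+/+. Cd2 had 3.46, 3.86 and 4.41 FPKM against 2.84, 1.61 and 1.73 FPKM, a mean of 52.6%. Nkg7 had 11.7, 12.4 and 10.9 FPKM against 11.1, 4.04 and 5.87 FPKM, and overlapped because replicate 1 of Acot12-/- UUO lay within the range of Acot12+/+.

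The coreceptor genes overlapped between the genotypes in UUO kidneys. Cd8b1 had 2.18, 4.24 and 3.04 FPKM in Acot12+/+ UUO and 2.42, 1.01 and 1.09 FPKM in Acot12-/- UUO. Cd8a had 2.62, 3.16 and 3.59 FPKM against 3.04, 1.11 and 1.90 FPKM. Cd4 had 3.09, 1.91 and 2.94 FPKM against 1.96, 2.02 and 2.17 FPKM, the smallest distance of the 10 genes in UUO kidneys. In each Acot12-/- CD8 gene, replicate 1 was the library that reached the Acot12+/+ range.

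Gzma went the other way. It had 1.84, 2.96 and 1.63 FPKM in Acot12+/+ UUO and 5.27, 3.63 and 5.37 FPKM in Acot12-/- UUO, a mean of 222% of Acot12+/+ with no overlap. Relative to the summed FPKM of the 3 CD3 genes, Gzma was 0.0745 to 0.133 in Acot12+/+ UUO and 0.342 to 0.508 in Acot12-/- UUO, and 0.113 to 0.343 against 0.732 to 1.05 in CL kidneys. The corresponding ratio of Nkg7 overlapped in both kidneys, with 0.476 to 0.557 in Acot12+/+ UUO and 0.437 to 0.719 in Acot12-/- UUO.

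Over the 10 genes, the difference of Acot12-/- from Acot12+/+ in log2(FPKM + 1) ranged from -1.84 (Nkg7) to -0.14 (Cd4) in CL kidneys, with a median of -0.86, and from -0.86 (Cd3d) to 0.88 (Gzma) in UUO kidneys, with a median of -0.72. The medians over all 13243 genes tested were 0.01 in CL and 0.00 in UUO kidneys. In all, 7 members lay below without overlap in CL kidneys, where 9.73% of all tested genes did so, and 5 members in UUO kidneys, where 6.48% did. Since the members were selected on these same values, nothing is read from these shares. On the log2(FPKM + 1) scale differences of low levels are understated, and with a pseudocount of 0.1 the median in CL kidneys was -1.99. The summed FPKM of the 10 genes was 16.0 to 24.6 for Acot12+/+ and 5.04 to 6.30 for Acot12-/- CL libraries, and 54.0 to 57.0 and 26.2 to 46.3 for the respective UUO libraries, so the 4 groups did not overlap in this sum.

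The response to obstruction, UUO against CL within a genotype, is another comparison than the one behind the choice of members, although it uses the same libraries. It was tested with limma, with adjusted p-values over all 13243 genes. All 10 members passed the filter of at least 1 FPKM in 3 libraries. Cd4 and Cd2 reached 1 FPKM in UUO libraries alone and had to differ to be tested, and Cd3e would not have passed on the CL libraries, so these 3 genes are left out of the counts that follow. In Acot12+/+ kidneys 5 of the other 7 genes, Cd3d, Cd3g, Cd8b1, Lck and Nkg7, were higher in UUO than in CL (23.6% of all tested genes were called higher), and each of the 5 lay above without overlap (35.5% of all tested genes). Lck rose by 1.39 ± 0.15 on the log2 scale (SE, adjusted p = 3.1e-05 in limma). Cd4, with a difference of 1.54 ± 0.14, and Cd2, with 1.50 ± 0.15, are given with that limit. The CD3 genes rose by 1.11 (Cd3e, with the same limit) to 1.35. For mean FPKM this is 2.88-fold for Cd3d, 3.21-fold for Cd3e and 2.90-fold for Cd3g. Nkg7 rose by 1.21 ± 0.29 (adjusted p = 0.0048 in limma).

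Cd8b1 rose by 0.79 ± 0.23 in Acot12+/+ kidneys (adjusted p = 0.013 in limma), a call that was lost without Acot12+/+ CL replicate 3 (adjusted p = 0.053 in limma) or without Acot12+/+ UUO replicate 2 (adjusted p = 0.064 in limma). Cd8a and Gzma did not pass, with differences of 0.39 ± 0.30 (adjusted p = 0.31 in limma) and 0.14 ± 0.24 (adjusted p = 0.65 in limma). Scaling to equal total FPKM, which moved the median of all genes to 0.62 in this comparison, gave 0.94 for Cd8a (adjusted p = 0.0069 in limma) and 0.64 for Gzma (adjusted p = 0.022 in limma), so both passed under that scaling.

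In Acot12-/- kidneys 6 of the same 7 genes were higher in UUO than in CL (26.6% of all tested genes were called higher), again all 6 without overlap (27.8% of all tested genes). Nkg7 rose by 2.29 ± 0.29 on the log2(FPKM + 1) scale (SE, adjusted p = 4.6e-05 in limma). Cd3d and Cd3g each rose by 1.92 and Lck by 1.72 ± 0.15 (adjusted p = 3.9e-06 in limma). Cd3e, at lower FPKM, had a difference of 1.05 ± 0.15, given with the limit that it did not pass the filter on the CL libraries. Cd8b1 rose by 1.26 ± 0.23 (adjusted p = 0.00061 in limma), and the differences of Cd2 and Cd4 were 1.49 ± 0.15 and 1.44 ± 0.14. The order of these sizes depends on the pseudocount. With a pseudocount of 0.1 the differences were 3.87 for Cd3d, 3.70 for Cd8b1, 3.69 for Cd2, 3.50 for Nkg7 and 3.40 for Cd4.

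Gzma rose by 1.33 ± 0.24 (adjusted p = 0.00053 in limma), 3.76-fold in mean FPKM. Cd8a was the gene that did not pass, at 0.21 ± 0.30 (adjusted p = 0.59 in limma). The response in Acot12-/- minus that in Acot12+/+ was 1.19 ± 0.33 for Gzma, 1.08 ± 0.41 for Nkg7 and 0.68 ± 0.31 for Cd3d, and -0.19 to 0.56 for the other 7 genes. These differences share the genotype values by which the genes were chosen, and they were not tested.

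**Figure D2:**
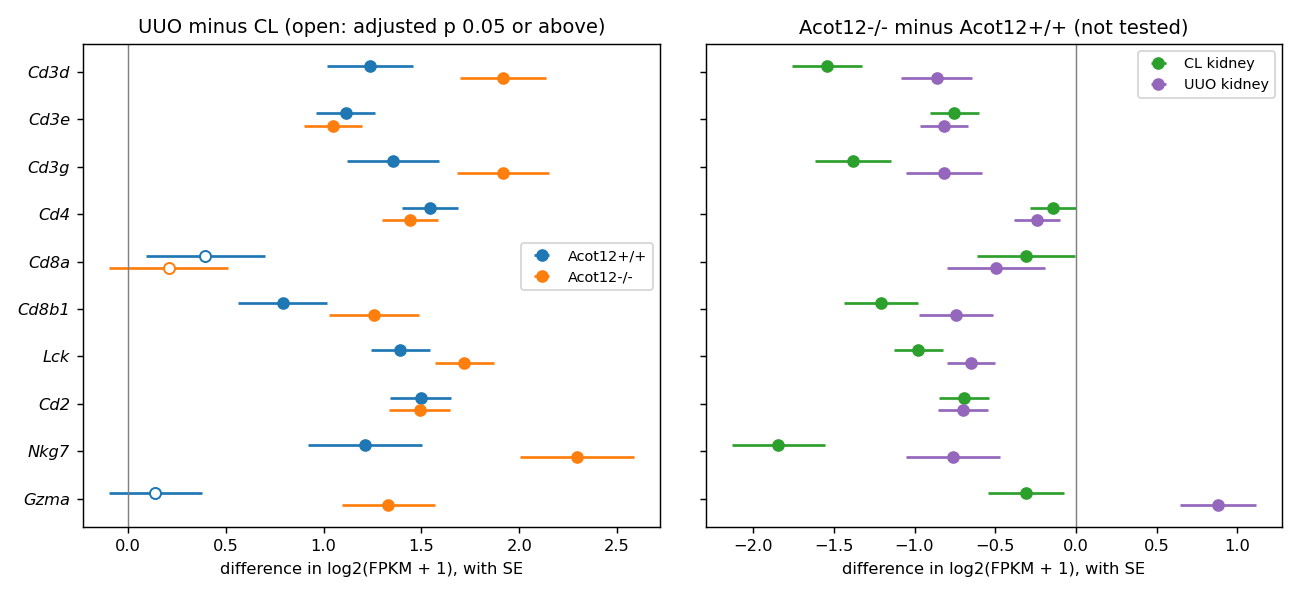
Differences in log2(FPKM + 1) with standard errors for the 10 member genes (horizontal axis, zero as a grey line). Left, UUO minus CL in each genotype. Open points are genes at an adjusted p of 0.05 or above (Cd8a in both genotypes and Gzma in Acot12+/+). Cd3e, Cd4 and Cd2 did not pass the filter on the CL libraries. Right, Acot12-/- minus Acot12+/+ in each kidney, not tested, where Gzma in UUO kidneys lies right of zero at 0.88.

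The order of the levels, compared per kilobase, changed between the groups. In Acot12+/+ CL, Nkg7 (mean 4.56 FPKM) and Cd3g (4.12) came first with overlapping ranges, Cd3d through Cd3e followed with each neighbor overlapping the next, and Cd2 (0.737) and Cd4 (0.239) were last without overlap. In Acot12+/+ UUO, Cd3g (12.0) and Nkg7 (11.7) overlapped and stood above Cd3d (7.17) and Lck (6.64), which stood above the rest, and Gzma was last at 2.14. In Acot12-/- CL, Cd8a (1.57) and Gzma (1.26) came first and Cd8b1 last, and every neighbor in the order overlapped the next. In Acot12-/- UUO, Nkg7 (6.99), Cd3g (6.53) and Gzma (4.75) came first, also with overlapping neighbors. By mean FPKM, Gzma was last of the 10 in Acot12+/+ UUO, with values overlapping those of Cd4, Cd8a and Cd8b1, and the third in Acot12-/- UUO.

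Within groups the correlations between members were mixed, and other sets of genes were not measured beside them. After group means were removed, the correlation between members over the 12 libraries had a median of 0.26 over 45 gene pairs, from -0.49 to 0.86, and 34 pairs were positive. These points share the depth and composition of the same 12 libraries. The spread was widest in Acot12-/- UUO, where replicate 1 had the highest level of 8 members and replicate 2 the lowest level of 7. Without replicate 1 of Acot12-/- UUO the median difference between the genotypes in UUO kidneys ended at the most negative of the values obtained by leaving out a library, -0.89.

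Genes of all leukocytes were also lower in Acot12-/- CL kidneys, and their sums overlapped between the genotypes in UUO kidneys. The list of 9 such genes (among them Ptprc, encoding CD45, and Coro1a) summed to 138 to 156 FPKM in Acot12+/+ CL against 42.4 to 86.1 FPKM in Acot12-/- CL. Of the 9, 7 were lower in Acot12-/- CL in limma (3.36% of all tested genes were called lower), with a median of -0.84 on the log2 scale. With the 6 CL libraries alone in the fit, 0 of the 9 were called (5 of all 12224 genes tested there). All 9 had an unadjusted p under 0.05 in that fit (1349 of the 12224). In UUO kidneys the sums were 391 to 419 and 374 to 496 FPKM, 0 of 9 were called in limma and 0 of 9 had an unadjusted p under 0.05, and the median was 0.02. The difference between the responses to obstruction was called in limma for 0 of the 9 (14 of all 13243 tested genes). At an unadjusted p under 0.05 it was 8 of the 9 (1389 of all tested genes). With the replicate block, which pairs kidneys by replicate number, 5 of the 9 were called (203 of all tested genes). Ptprc had 3.19 FPKM in replicate 2 of Acot12-/- CL, within the Acot12+/+ CL range of 2.94 to 3.71, and 0.850 and 0.930 FPKM in the other two.

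Relative to this leukocyte sum, the members divided. Per 100 FPKM of the leukocyte genes, the 3 CD3 genes summed to 5.23, 5.98 and 4.31 FPKM in Acot12+/+ CL against 2.78, 2.29 and 1.98 FPKM in Acot12-/- CL. In UUO kidneys the values were 5.89, 5.34 and 5.41 FPKM against 4.12, 2.13 and 2.13 FPKM. Neither kidney showed overlap in this sum, and the mean of Acot12-/- was 45.5% of Acot12+/+ in CL and 50.3% in UUO kidneys. Taken gene by gene, Cd3d, Cd3g, Cd8b1, Lck and Cd2 were lower without overlap in CL kidneys, and the 3 CD3 genes, Lck and Cd2 in UUO kidneys. The share of all genes without overlap by this measure was not computed, so nothing is read from the number of members. Cd4, Cd8a and Gzma had higher means by this measure in CL kidneys (155%, 156% and 164% of Acot12+/+) with overlapping values, and Gzma was higher without overlap in UUO kidneys (212%). The median over the 10 genes of the log2 ratio to the leukocyte sum, a measure chosen after seeing the data, differed between the genotypes in CL kidneys by 0.39 with a pseudocount of 1 and by -0.73 with a pseudocount of 0.1. The ratio uses the genotype values by which the members were chosen and has no test.

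**Figure D3:**
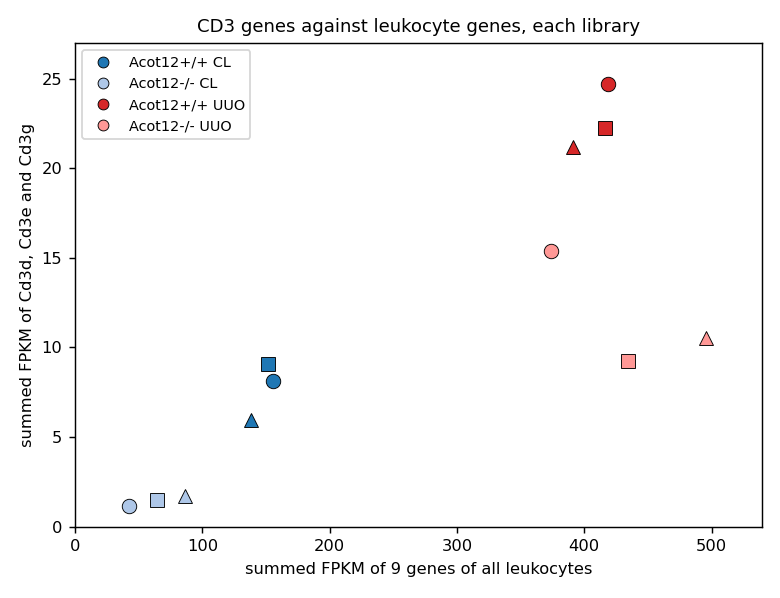
Summed FPKM of Cd3d, Cd3e and Cd3g (vertical axis) against summed FPKM of 9 genes of all leukocytes (horizontal axis), with 1 point for each of the 12 libraries and the shape giving the replicate number. In UUO kidneys the leukocyte sums of the genotypes overlap (391 to 419 and 374 to 496), while the CD3 sums do not (21.2 to 24.7 in Acot12+/+ and 9.25 to 15.4 in Acot12-/-).

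Markers of other cells were measured for comparison. The 14 macrophage and monocyte genes summed to 185 to 210 FPKM in Acot12+/+ CL against 64.9 to 136 FPKM in Acot12-/- CL. In limma 5 were called lower (3.36% of all tested genes). With the CL libraries alone in the fit, 0 of 13 tested were called (5 of all 12224 genes tested there). In that fit 8 had an unadjusted p under 0.05 (1349 of the 12224). In UUO kidneys the 14 genes summed to 754 to 896 and 802 to 1051 FPKM, with 0 called in limma. There 1 had an unadjusted p under 0.05 (312 of all 13243 tested genes). The 10 B cell and plasma cell genes summed to 4.08 to 7.88 and 3.48 to 8.53 FPKM in CL, and to 11.6 to 14.1 in Acot12+/+ UUO against 25.7 to 51.2 FPKM in Acot12-/- UUO. The 10 proximal tubule genes, which mark kidney cortex, summed to 3083 to 3697 in Acot12+/+ CL and 4261 to 5950 FPKM in Acot12-/- CL, and overlapped in UUO kidneys (767 to 1314 and 599 to 1634 FPKM). The 9 dendritic cell genes summed to 16.9 to 21.3 and 9.93 to 16.4 FPKM in CL, and to 31.4 to 42.2 and 35.8 to 43.4 FPKM in UUO kidneys, while the 7 neutrophil genes overlapped in both. The part of cell composition in the members' levels was not tested.

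The other genes of these cells were 109 genes with a value from 6 lists, of which 61 passed the filter. In CL kidneys 16 of the 61 were lower in Acot12-/- (3.36% of all tested genes) and 0 were higher in limma, where 34 were lower (10.3% of all tested genes) and 0 higher at an unadjusted p under 0.05. Ccl5, a chemokine stored by cytotoxic T cells, fell by 2.50 on the log2(FPKM + 1) scale (SE 0.31, adjusted p = 0.0028 in limma), from 27.6 ± 7.95 FPKM (SD, n = 3) to 4.03 ± 1.32 FPKM. Among T cell receptor and signaling genes, 6 of 18 fell, among them the GTPase genes Gimap3 (by 0.99), Gimap7 (by 1.27) and Gimap5 (by 0.89) and Thy1 (by 1.23). Thy1 is also carried by fibroblasts.

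Among cytokine receptor and homing genes 4 of 12 fell in CL kidneys: Cxcr6, a receptor of tissue T cells (by 1.22), S1pr1, the egress receptor, also abundant in endothelium (by 1.02), the cytokine gene Ltb (by 1.09) and Itgb7 (by 0.73). Ets1, a transcription factor of lymphocytes and endothelium, fell by 1.27, and it was the 1 of 6 transcription factors to do so. Of 10 cytotoxic and NK genes 3 fell, Ccl5, Ctsw (by 1.10) and Klrd1 (by 0.95), and 0 of 5 costimulation and checkpoint genes did so in limma, with 2 lower at an unadjusted p under 0.05. Among the ligands 2 of 10 fell, the lymphoid chemokines Ccl19 (by 1.43) and Ccl21a (by 1.72). The median over the 61 genes was -0.39, against 0.01 over all genes.

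The count of 16 depended on the libraries and on the fit. It was 8 without Acot12+/+ CL replicate 1, 10 without Acot12+/+ CL replicate 2, 7 without Acot12-/- CL replicate 1 and 25 without Acot12-/- CL replicate 2. Over all tested genes, 445 were called lower with every library, and 162, 222, 151 and 1381 in these fits in the same order. With the 6 CL libraries alone in the fit, 1 gene, Ccl5, was called.

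In UUO kidneys 0 of the 61 genes were called lower or higher between the genotypes in limma, where 0.0151% of all tested genes were called lower. At an unadjusted p under 0.05, 16 of the 61 were lower (0.989% of all tested genes) and 2 were higher (1.37% of all tested genes). Every Acot12-/- library lay below every Acot12+/+ library for 16 of the 61 (6.48% of all tested genes). The genes with the smallest p were Gimap3, with 7.32, 6.80 and 7.58 FPKM in Acot12+/+ UUO and 3.73, 2.20 and 3.01 FPKM in Acot12-/- UUO (difference -1.07 ± 0.16, adjusted p = 0.089 in limma), and Gimap7 (difference -1.10 ± 0.21, adjusted p = 0.45 in limma). The 2 genes higher at an unadjusted p under 0.05 were the chemokines Ccl3 (1.33 ± 0.37) and Ccl4 (1.05 ± 0.33, each adjusted p = 1.00 in limma). The UUO genes of this paragraph were named after their values were seen.

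**Figure D4:**
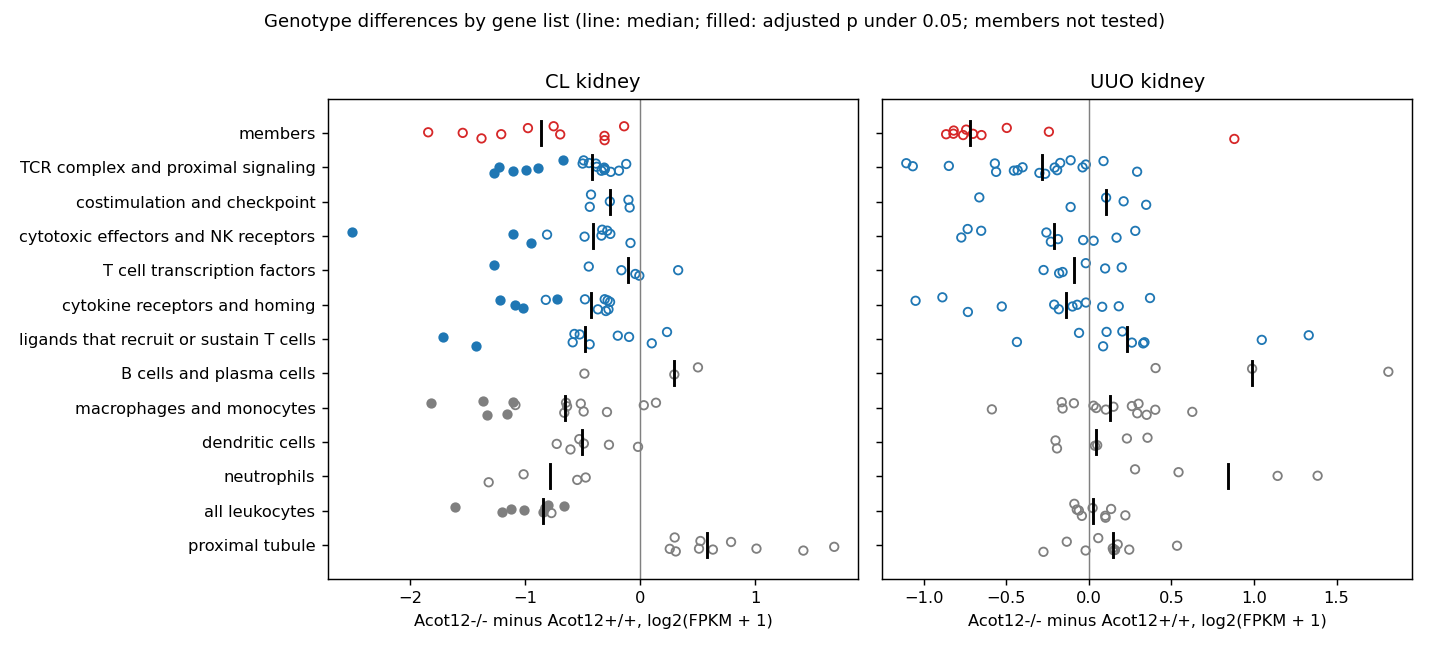
Acot12-/- minus Acot12+/+ in log2(FPKM + 1) (horizontal axis, a scale per panel) for each tested gene of the members (red, not tested), 6 lists of other T cell and cytotoxic genes (blue) and 6 marker lists (grey), in CL (left) and UUO kidneys (right). Black lines are medians and filled points have an adjusted p under 0.05. In CL kidneys the medians of all lists except B cells and proximal tubule lie below zero (-0.84 for the all-leukocyte genes), whereas in UUO kidneys those genes are centred at 0.02 and the members at -0.72.

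Most of these other genes were higher in UUO than in CL, a count that the filter favors. Of the 61, 32 passed the filter on the CL libraries alone. Genes that reached 1 FPKM in UUO libraries alone had to differ to be tested. In Acot12+/+ kidneys 45 of the 61 were higher (23.6% of all tested genes) and 4 lower in UUO (23.9% of all tested genes). In Acot12-/- kidneys 53 were higher (26.6%) and 2 lower (27.2% of all tested genes). The largest changes in Acot12+/+ were in Thy1 (2.78 ± 0.22 on the log2 scale), the chemokine gene Cxcl10 (2.52 ± 0.33), Ccr2 (2.33 ± 0.23), a receptor of monocytes and some T cells, and Ltb (2.29 ± 0.20), and Ccl21a fell by 2.40 (SE 0.40). In Acot12-/- they were in Thy1 (3.71 ± 0.22), Ccl5 (3.62 ± 0.31), Ccr2 (3.33 ± 0.23) and Ltb (2.65 ± 0.20). The adjusted p of these changes in limma was at most 0.00051. The difference between the responses was called for 0 of the 61 genes in limma (14 of all 13243 tested genes). At an unadjusted p under 0.05 it was 19 of the 61 (1389 of all tested genes), each with the more positive response in Acot12-/-. The split by sign over all genes was not counted at that p, but all 14 called genes had the more positive response in Acot12-/-. With the replicate block, which pairs kidneys by replicate number, 203 of all tested genes were called, 184 of them with the more positive response in Acot12-/-. Of the 61 genes, 4 were called with the block. They were Ccl19 (difference 1.54 ± 0.29, adjusted p = 0.031 in limma), Ccl5 (1.77 ± 0.37, adjusted p = 0.044 in limma), Ets1 (1.25 ± 0.27, adjusted p = 0.045 in limma) and S1pr1 (0.95 ± 0.21, adjusted p = 0.049 in limma).

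The 10 tested genes whose levels were most like the mean profile of the members over the 12 libraries were Sh2d1a, Ctsw, Ccl5, Mgl2, Itgb7, Ptprcap, Gimap3, Acap1, Ms4a4b and Lat, with Pearson correlations of 0.984 to 0.964. Of these, Sh2d1a, an adaptor of T and NK cells, Ctsw, Ccl5, Itgb7, Gimap3 and Lat were in the lists above, and Mgl2 is a lectin of macrophages and dendritic cells. These correlations follow the 4 groups. With group means removed, the most similar genes were Qrsl1, Slc26a4, Atp6v1c2, 1700028J19Rik and Acot3, at 0.884 to 0.858, and Zap70, the kinase downstream of LCK, followed at 0.843 and Cd27 at 0.820.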

How the data were processed

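RNA from kidney cortex was sequenced from 12 libraries, 3 for each of 4 groups taken from the labels. Libraries came from a directional kit, and trimming, mapping and normalization were done for the authors by a company. The submitters' processing notes name mm10 and edgeR, and the aligner is not given in the sources used here. The deposited values are FPKM for 23183 symbols. The unit was derived from the values, since low values fall on whole multiples of a step that depends on transcript length (67.9% to 73.0% of them within 0.1 of a whole number), which also gave the depth. FPKM are not counts, so no count test was run.

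Genes with at least 1 FPKM in 3 libraries were tested (13243). Another 28 genes passed this filter and were left out because they are listed at 0 in a library whose group has another library with at least 10 FPKM. R 4.3.3 with limma 3.58.1 fitted log2(FPKM + 1) with 4 groups in a single model and a variance trend. Calls required an adjusted p (Benjamini-Hochberg, over all genes tested) under 0.05. The scripts were tested on simulated data. Members and lists were chosen with earlier results of these data known. From the other lists, up to 10 genes called between genotypes and the 5 largest called changes per UUO comparison were named, and others named are marked or belong to a count. A gene that this rule covers is left unreported here. Positions are from GENCODE vM21, and summaries and figures used Python 3.11.15, pandas 2.3.3 and matplotlib 3.10.9. Whether libraries of a group came from separate mice is not stated for each, and p-values measure the spread between these libraries. Counting error enters through that spread alone.

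Same-numbered CL and UUO libraries of a genotype had residual correlations of 0.134 to 0.364 in Acot12+/+ and 0.186 to 0.322 in Acot12-/-. Libraries with different numbers had -0.363 to 0.139 in Acot12+/+ and -0.177 to -0.075 in Acot12-/-. The ranges overlapped in Acot12+/+ and not in Acot12-/-. The labels do not state that equal numbers mean the same mouse, which the replicate block assumes. Alternatives were another pseudocount, filters, scalings, fits, the replicate block and each library left out.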

Additional observations from a re-analysis of the deposited data

How the results depend on the processing

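The replicate block takes libraries of the same genotype and number as a pair. With it, 8 of 10 members in Acot12+/+ and 9 of 10 in Acot12-/- kidneys were called higher in UUO, as without it. Between genotypes, 16 and 0 of the other T cell and cytotoxic genes were called in CL and UUO, also as without it. The member counts of this section include Cd3e, Cd4 and Cd2, which did not pass the filter on the CL libraries. Without these 3 genes, the fit without the block called 5 and 6 of 7 (23.6% and 26.6% of all tested genes). Counts of other genes for UUO against CL carry the same limit where the filter was applied. For the difference between the responses, the block gave 203 calls over all genes against 14 without it, and 4 against 0 among the other T cell and cytotoxic genes. The paired fit changed no call of a named gene in the 4 comparisons of groups. Leaving out 1 library gave 7 to 8 and 9 to 9 called members, 7 to 25 other genes in CL and 0 to 0 in UUO between genotypes, 42 to 50 and 50 to 57 other genes for UUO against CL in Acot12+/+ and Acot12-/-, and median member differences between genotypes of -0.90 to -0.83 in CL and -0.89 to -0.60 in UUO.

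Over all tested genes, 151 to 1381 were called lower between genotypes in CL with 1 library left out. For the other genes between genotypes, 1 of 32 tested was called in CL with the 6 CL libraries alone (5 of all 12224 genes tested there). In UUO, 1 was called with equal total FPKM (3 of all 13479 tested genes). For UUO against CL, no filter gave 79 and 87 genes in Acot12+/+ and Acot12-/-, a filter of 0.1 FPKM gave 78 and 89, where more genes were tested, and a fold change of at least 2 gave 26 in Acot12+/+. The median member difference in CL was -1.99 with a pseudocount of 0.1. As a ratio to Ptprc it was -0.092 with a pseudocount of 1 and, not planned beforehand, -0.83 with a pseudocount of 0.1. As a ratio to the summed leukocyte genes (chosen after seeing the data) it was 0.39 with a pseudocount of 1, which compresses values under 1 FPKM, and -0.73 with a pseudocount of 0.1. In UUO that ratio with a pseudocount of 0.1 gave -0.96. A fold limit gives no value for these medians. Leaving out 1 library, the UUO difference of Cd8a in Acot12-/- ranged from -0.027 (without UUO replicate 1) to 0.44, and that of Gzma in Acot12+/+ from -0.13 (without CL replicate 1), with -0.039 without UUO replicate 2, to 0.35. None of these was called. Where no construction is named, the cause was not tested. Levels in Acot12-/- CL rest on few fragments, which limits how small a difference there could be detected.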

Other observations

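Among the marker genes, chosen after their values were seen, Jchain, which joins antibody subunits in plasma cells, had 9.27, 7.32 and 8.33 FPKM in Acot12+/+ UUO and 19.0, 41.2 and 39.8 FPKM in Acot12-/- UUO, with no overlap and a difference of 1.81 ± 0.44 on the log2 scale (adjusted p = 0.95 in limma). Mzb1, also of plasma cells, had 0.782, 0.710 and 0.911 FPKM against 1.58, 3.80 and 2.68 FPKM (adjusted p = 0.95 in limma). Klrd1, an NK receptor gene, had 3.47, 3.70 and 5.46 FPKM in Acot12+/+ UUO and 4.88, 3.18 and 4.87 FPKM in Acot12-/- UUO, a difference of 0.03 ± 0.19 (adjusted p = 1.00 in limma), whereas it fell in Acot12-/- CL.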
